A study of Mus musculus with 4 samples.

Results

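The 10 genes described here encode receptors, bridging molecules, and an adaptor of efferocytosis: *Mertk*, *Axl*, *Tyro3*, *Gas6*, *Pros1*, *Timd4*, *Stab1*, *Cd36*, *Mfge8*, and *Gulp1*. They were taken by name for their roles, with earlier results of these data known, and each matched 1 of the 55401 genes in the deposited tables. RNA was sequenced from CD45+ cells, that is, leukocytes, sorted from the dura mater of WT mice that had received 2 μl of an adeno-associated virus (AAV) into the cisterna magna at 4 wk of age. AAV-mVEGF-C encoded the whole mouse VEGF-C protein. The control vector, AAV-CTRL, encoded a soluble part of VEGFR-3 that does not bind VEGF-C joined to an immunoglobulin tail, so the controls also had a virus and a foreign transgene product. Each group had 2 libraries, and 10 to 12 mice per group were used for this isolation, per its methods. The study's figure legend on the gating of lymphatic endothelial cells in this sort gives more mice per group. How many mice stand behind each library is not given in the sources used here, so the p-values measure only the spread between libraries.

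Efferocytosis is the uptake of dying cells by phagocytes. Dying cells display phosphatidylserine on their surface, which receptors such as TIM-4 (*Timd4*) and stabilin-1 (*Stab1*) bind directly, whereas the receptor tyrosine kinases TYRO3, AXL, and MERTK (the TAM receptors) reach it through the bridging proteins GAS6 and protein S (*Pros1*). MFG-E8 (*Mfge8*) links phosphatidylserine to integrins, CD36 is a scavenger receptor that takes part in the same uptake, and GULP1 is an adaptor that acts inside the phagocyte. In tissues, resident macrophages are known for MERTK and TIM-4, and they use the uptake of dying cells to limit inflammation.

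The libraries held 32520709 to 46409700 reads assigned to genes, and 19806 genes passed the expression filter, all 10 efferocytosis genes among them. *Ptprc*, which encodes CD45, was at 946 to 1151 CPM (reads per 1000000 after TMM scaling of the library totals) in the 4 libraries. AAV-CTRL 1 stood apart, with the most reads, the fewest detected genes (20993, against 29230 to 37535), and the lowest correlations with the others across genes (r = 0.967 to 0.973 on log2(CPM + 1), against 0.981 to 0.988). Values without it are given for the genes whose difference it carries.

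The promoters of the 10 genes were read from RefSeq on GRCm38.p6, as the 250 bases before each annotated start, and all 10 matched. A GC box, the letters GGGCGG on either strand, occurred in 8 of the 10, and in 32.7% of the 32851 promoters in the same collection. *Pros1* had 5 of them, *Gas6* and *Mfge8* 4 each, and *Mertk* and *Tyro3* 3 each. The TATA box TATAAA, the AP-1 motif TGANTCA, the E-box CACGTG, and the PU.1 core GAGGAAGT were searched on both strands too and occurred in 0 of the 10 (12.4%, 6.75%, 6.02%, and 2.44% of all promoters). *Axl* and *Mertk* are shown because they are the same kind of receptor at very different levels, and *Stab1* and *Timd4* because their windows held no GC box. The capitals mark GC boxes. *Axl* lies at chr7:25788734-25788983 on the minus strand, *Mertk* at chr2:128698665-128698914 on the plus strand, *Stab1* at chr14:31168642-31168891 on the minus strand, and *Timd4* at chr11:46810549-46810798 on the plus strand.
*Axl*: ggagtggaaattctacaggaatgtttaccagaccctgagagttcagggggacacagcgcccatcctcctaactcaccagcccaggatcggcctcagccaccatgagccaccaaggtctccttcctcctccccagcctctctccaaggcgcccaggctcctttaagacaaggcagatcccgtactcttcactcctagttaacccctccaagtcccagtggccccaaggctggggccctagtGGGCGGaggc
*Mertk*: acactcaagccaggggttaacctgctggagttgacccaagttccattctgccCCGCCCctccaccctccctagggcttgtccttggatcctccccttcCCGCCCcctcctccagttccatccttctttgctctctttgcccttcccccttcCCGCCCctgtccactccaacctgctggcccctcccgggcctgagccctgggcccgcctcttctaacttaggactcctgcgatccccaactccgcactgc
*Stab1*: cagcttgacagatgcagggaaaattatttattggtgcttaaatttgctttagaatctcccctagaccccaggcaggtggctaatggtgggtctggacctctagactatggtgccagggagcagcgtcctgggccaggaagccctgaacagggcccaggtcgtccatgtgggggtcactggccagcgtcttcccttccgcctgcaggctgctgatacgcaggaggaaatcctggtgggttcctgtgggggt
*Timd4*: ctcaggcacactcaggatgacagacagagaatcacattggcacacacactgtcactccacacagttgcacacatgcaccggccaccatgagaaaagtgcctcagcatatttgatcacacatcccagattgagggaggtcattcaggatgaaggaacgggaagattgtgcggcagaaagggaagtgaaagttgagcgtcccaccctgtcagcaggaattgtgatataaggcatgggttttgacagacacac
These matches describe the letters in the windows only. The windows of *Tyro3* and *Gulp1* overlapped annotated exons over 128 and 160 of their 250 bases, so they are not purely sequence before a gene. Nor is that of *Cd36*, at chr5:17835897-17836146, which overlapped no annotated exon but lay inside the annotated gene.

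Levels were compared between genes in TPM, the deposited unit that corrects for transcript length. *Axl* was the most abundant, at 76.1 and 105 TPM in AAV-CTRL 1 and 2 and 63.6 and 71.8 TPM in AAV-mVEGF-C 1 and 2. *Mertk* was at 2.17 and 4.98 TPM in the controls and 3.23 and 3.74 TPM after AAV-mVEGF-C, and *Tyro3* at 0.556 and 0.419 TPM against 0.335 and 0.332 TPM. *Axl* thus made up 94.6 to 96.5% of the TAM receptor TPM in every library, *Mertk* 2.75 to 4.93%, and *Tyro3* 0.379 to 0.705%. The mean over the 4 libraries ran from 79.2 ± 18.1 TPM (SD) for *Axl* to 0.411 ± 0.105 TPM for *Tyro3*, a 193-fold range.

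Below *Axl*, the order by mean TPM was *Stab1* (33.5), *Gas6* (20.2), *Cd36* (17.8), *Mfge8* (11.8), *Pros1* (5.59), *Mertk* (3.53), *Timd4* (1.14), *Gulp1* (0.476), and *Tyro3*. Every library of *Axl* was above every library of *Stab1*. The same held for *Mfge8* over *Pros1* and for *Mertk* over *Timd4*. The other neighbors in this order overlapped between libraries, so neighbors were separated in 3 places of 9: below *Axl*, below *Mfge8*, and below *Mertk*. Leaving out any 1 library kept this order, except that *Tyro3* passed *Gulp1* without AAV-CTRL 2.

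**Figure D1:**
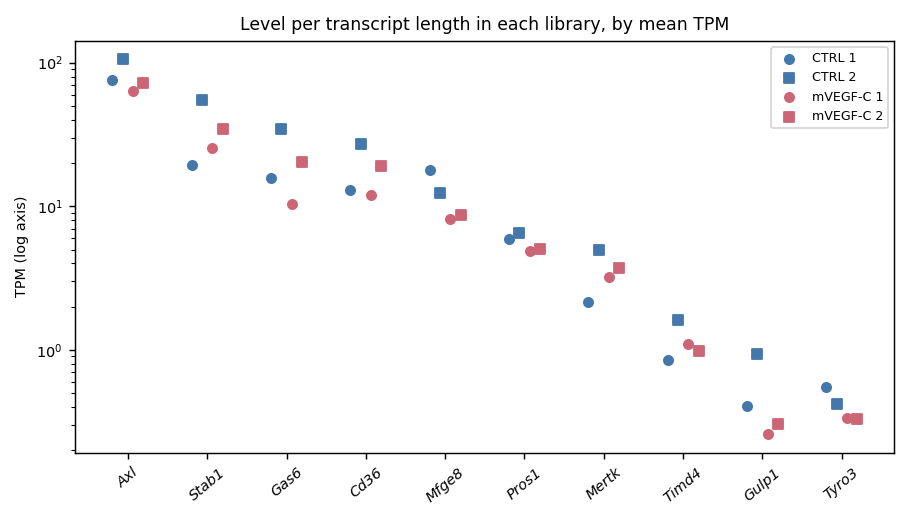
TPM of each gene (log axis) in the 4 libraries, ordered by mean TPM, with AAV-CTRL in blue, AAV-mVEGF-C in red, circles for experiment 1, and squares for experiment 2. *Axl* lies between 63.6 and 105 TPM in every library and *Tyro3* between 0.332 and 0.556 TPM.

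Whether AAV-mVEGF-C changed these genes was tested with edgeR's quasi-likelihood test across all 19806 genes. Of the 10 genes, 0 passed an adjusted p of 0.05, and 0 had an unadjusted p under 0.05. A p that misses the threshold does not show that a gene did not differ. The background was also 0% of all tested genes at the adjusted threshold and 2.64% at the unadjusted one. DESeq2, the tool the study names, also called 0 of the 10 (0.189% of its genes), with 1, *Cd36*, at an unadjusted p under 0.05 (2.1% of its genes). Without a filter (0.659% of all genes called), with a replicate block (0.0555%), with a crossed block (0.273%), and without AAV-mVEGF-C 1 (0.0097%) or 2 (0.284%), 0 of the 10 passed as well. Without AAV-CTRL 1, 2 of the 10 passed (1.85% of all genes), and without AAV-CTRL 2, 1 did (9.19%). The log2 fold changes ran from −0.61 for *Gulp1* to 0.10 for *Mertk*, and 9 of the 10 were below 0, against 49.6% of all tested genes. Their median was −0.32, and that of all tested genes was 0.0034. This direction depended on AAV-CTRL 2: without it the median was 0.08 and 4 of the 10 were below 0, and without AAV-CTRL 1 it was −0.40 and all 10 were below 0. In 4 genes (*Tyro3*, *Pros1*, *Cd36*, and *Mfge8*) both AAV-mVEGF-C libraries lay below both controls, which was the case for 15.2% of all tested genes, and 0 genes lay above, against 16.8%. The same 4 were apart with CPM on plain totals (16.7%) and with RLE factors (14.5%). With 2 libraries against 2, an exact two-sided permutation test of any single value cannot pass 0.05, since at least 2 of the 6 possible splits are as extreme as the one observed.

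**Figure D2:**
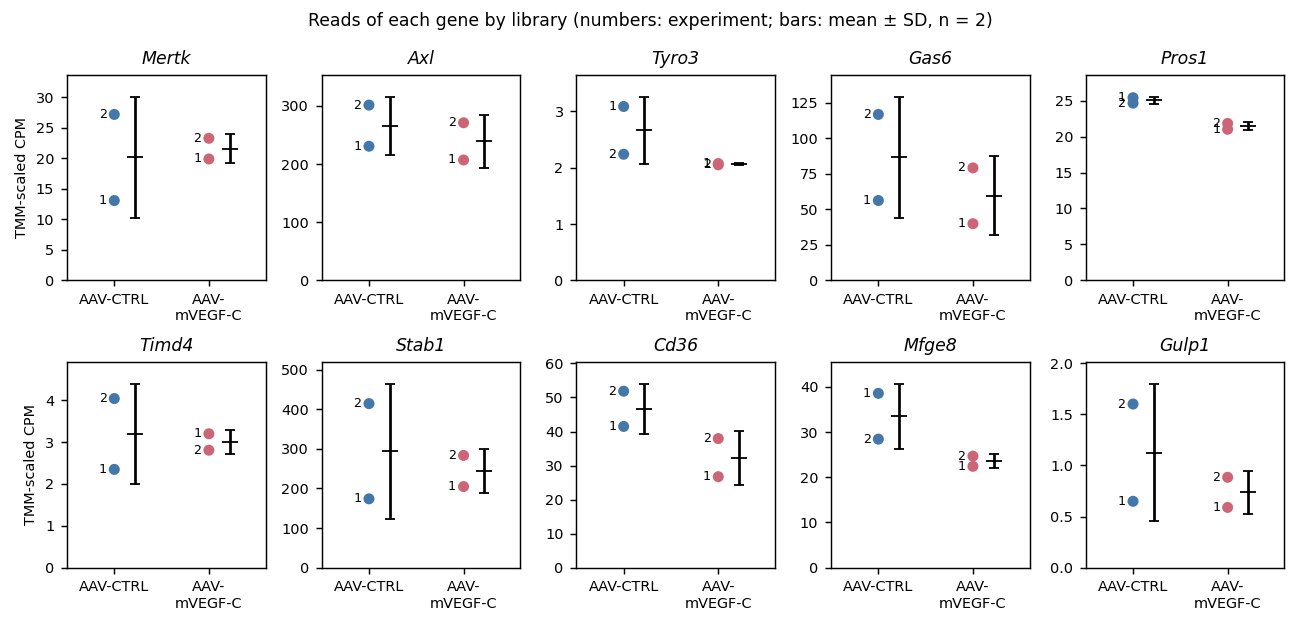
TMM-scaled CPM of each gene in AAV-CTRL (blue) and AAV-mVEGF-C (red), 1 point per library numbered by experiment, with the group mean ± SD (n = 2) beside it. The groups are apart for *Tyro3*, *Pros1*, *Cd36*, and *Mfge8*, while the AAV-CTRL points of *Mertk*, *Stab1*, and *Timd4* enclose both AAV-mVEGF-C points.

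Among the TAM receptors, *Axl* (ENSMUSG00000002602.16; GRCm38 chromosome 7, 25757273 to 25788705, minus strand) measured 231 CPM in AAV-CTRL 1, 301 CPM in AAV-CTRL 2, 207 CPM in AAV-mVEGF-C 1, and 271 CPM in AAV-mVEGF-C 2. The libraries of each group are given in this order below. The library of experiment 2 was the higher in both groups, and the groups overlapped (266 ± 49.98 CPM against 239 ± 45.3; SD, n = 2). Its log2 fold change was −0.15 (SE 0.22; adjusted p = 0.999). *Mertk*, a main receptor for dying cells on tissue macrophages (ENSMUSG00000014361.5; chromosome 2, 128698956 to 128802894, plus strand), was at 13.1 and 27.2 CPM in the controls and at 19.9 and 23.3 CPM after AAV-mVEGF-C. Both AAV-mVEGF-C libraries lay between the controls, and the log2 fold change was 0.10 (SE 0.35; adjusted p = 0.999). The direction of *Mertk* turned with the control kept, at −0.35 without AAV-CTRL 1 (adjusted p = 0.878 from edgeR) and 0.73 without AAV-CTRL 2 (adjusted p = 0.0551). *Tyro3* (ENSMUSG00000027298.17; chromosome 2, 119797733 to 119818104, plus strand) had 65 to 138 reads, at 3.09 and 2.24 CPM in the controls and 2.07 and 2.05 CPM in AAV-mVEGF-C. Its groups did not overlap, but AAV-CTRL 2 was nearer to the AAV-mVEGF-C libraries than to AAV-CTRL 1 (log2 fold change −0.37, SE 0.46; adjusted p = 0.999). Without AAV-CTRL 1, the log2 fold change of *Tyro3* was −0.14 (SE 0.51). ADAM10 and ADAM17 are proteases that cut TAM receptors from the cell surface, and their genes had log2 fold changes of −0.27 (SE 0.16) and −0.04 (SE 0.15).

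The TAM ligands differed from each other in how much they varied. *Gas6*, whose protein binds all 3 receptors (ENSMUSG00000031451.6; chromosome 8, 13465374 to 13494490, minus strand), was at 56.1 and 117 CPM in the controls and at 39.9 and 79.1 CPM in AAV-mVEGF-C. Experiment 2 was again the higher in each group, by 1.04 and 0.97 on the log2(CPM + 1) scale, more than the log2 fold change of −0.54 between the groups (SE 0.44; adjusted p = 0.999). The unadjusted p of *Gas6* was 0.00569 without a filter and 0.0258 with the replicate block, and 0.126 to 0.262 in the other settings with all libraries, at adjusted p of 0.463 to 1. Within experiments 1 and 2, the difference was −0.48 and −0.56. With the numbers crossed, it was 0.49 (AAV-mVEGF-C 2 minus AAV-CTRL 1) and −1.53 (AAV-mVEGF-C 1 minus AAV-CTRL 2). *Pros1* encodes protein S, also an anticoagulant of plasma, which binds TYRO3 and MERTK (ENSMUSG00000022912.8; chromosome 16, 62854307 to 62929346, plus strand). It was the steadiest of the 10 genes, at 25.4 and 24.7 CPM in the controls and 21.02 and 21.8 CPM in AAV-mVEGF-C. The groups did not overlap, and the log2 fold change of −0.22 (SE 0.18; adjusted p = 0.999) stayed between −0.25 and −0.19 with each library left out. *Gas6* took 72.5 and 84.2% of the TPM of both ligands in the controls and 68.1 and 80.1% after AAV-mVEGF-C, which overlapped.

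Both receptors that bind phosphatidylserine directly were spread widely among the controls. *Stab1* (ENSMUSG00000042286.13; chromosome 14, 31139013 to 31168641, minus strand) was at 174 and 414 CPM in the controls and 205 and 284 CPM in AAV-mVEGF-C. The controls, 1.25 apart on the log2(CPM + 1) scale, enclosed the AAV-mVEGF-C libraries, and the log2 fold change was −0.27 (SE 0.41; adjusted p = 0.999). *Timd4*, a marker of long-lived resident macrophages (ENSMUSG00000055546.6; chromosome 11, 46810800 to 46844332, plus strand), had 89 to 139 reads, at 2.35 and 4.04 CPM in the controls and 3.20 and 2.81 CPM after AAV-mVEGF-C (log2 fold change −0.09, SE 0.45; adjusted p = 0.999). For *Stab1* and *Gas6* the call turned on a single library. Without AAV-CTRL 1, *Gas6* had a log2 fold change of −0.99 (adjusted p = 0.0191) and *Stab1* of −0.78 (adjusted p = 0.0429) in edgeR's test, where 1.85% of all tested genes passed. Without AAV-CTRL 2, they were at 0.09 and 0.50 and neither passed (adjusted p = 0.85 and 0.146).

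*Cd36*, which besides dying cells binds oxidized lipoproteins and fatty acids (ENSMUSG00000002944.15; chromosome 5, 17781690 to 17888801, minus strand), was at 41.5 and 51.8 CPM in the controls and 26.7 and 37.9 CPM in AAV-mVEGF-C. The groups were apart (46.7 ± 7.32 CPM against 32.3 ± 7.92; SD, n = 2), with the closest libraries at 41.5 and 37.9 CPM. The log2 fold change was −0.53 (SE 0.23; unadjusted p = 0.0625, adjusted p = 0.999 from edgeR). The log2 fold change ran from −0.80 to −0.29 with each library left out, but with groups apart its sign could hardly turn. Its unadjusted p was 0.0474 with DESeq2, 0.0418 with limma-voom (3.44% of all genes under 0.05), 0.0115 without a filter (3.26%), and 0.0274 with the replicate block (2.65%). It was above 0.05 in the other settings with all libraries: 0.0515 with at least 10 reads in every library, 0.0615 with RLE factors, 0.0651 with the crossed block, and 0.481 and 0.48 with limma on TPM (log2 fold changes −0.31 and −0.32). The adjusted p of *Cd36* was 0.722 to 1 in all of these. *Mfge8*, the integrin bridging molecule (ENSMUSG00000030605.15; chromosome 7, 79133768 to 79149060, minus strand), was at 38.6 and 28.4 CPM in the controls and 22.4 and 24.7 CPM in AAV-mVEGF-C. The groups were apart here too, with AAV-CTRL 1 the farthest (33.5 ± 7.16 CPM against 23.5 ± 1.59; SD, n = 2). The log2 fold change was −0.51 (SE 0.21; unadjusted p = 0.0534, adjusted p = 0.999), the lowest unadjusted p of the 10 genes. In the other settings with all libraries it was 0.0217 without a filter, 0.0486 with limma-voom, 0.021 and 0.0189 with limma on TPM at pseudocounts of 1 and 0.1 (log2 fold changes −0.76 and −0.82; 4.55 and 4.46% of all genes under 0.05), and 0.0516 to 0.0687 elsewhere. The adjusted p of *Mfge8* was 0.837 to 1 in all of these. Without AAV-CTRL 2 it was −0.70 and passed (adjusted p = 0.0313), in a fit in which 9.19% of all tested genes passed and AAV-CTRL 1 was the only control. Without AAV-CTRL 1, it was −0.29 (SE 0.20; unadjusted p = 0.163, adjusted p = 0.995 from edgeR). *Itgav*, *Itgb3*, and *Itgb5*, which encode integrin chains that receive MFG-E8, had log2 fold changes of 0.04 (SE 0.17), −0.01 (SE 0.18), and −0.26 (SE 0.29). None of these integrin genes kept its sign with each library left out, and *Itgb5* ran from −0.57 to 0.11. *Gulp1* (ENSMUSG00000056870.9; chromosome 1, 44551511 to 44796838, plus strand) had only 23 to 55 reads, at 0.649 and 1.599 CPM in the controls and 0.589 and 0.883 CPM in AAV-mVEGF-C. At this depth no difference could be seen (log2 fold change −0.61, SE 0.84; adjusted p = 0.999).

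**Figure D3:**
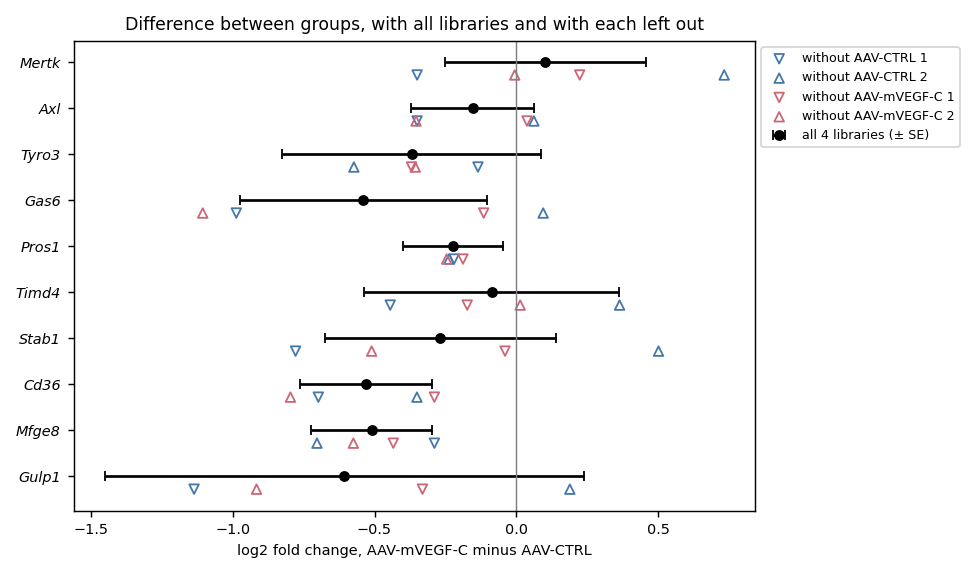
Log2 fold change (AAV-mVEGF-C minus AAV-CTRL) of each gene, with all 4 libraries in black (± SE) and with 1 library left out as open triangles. *Cd36*, *Mfge8*, *Pros1*, and *Tyro3* stay below 0 in every case, while *Gas6* runs from −1.11 to 0.09 and *Stab1* from −0.78 to 0.50. The groups of *Cd36*, *Mfge8*, *Pros1*, and *Tyro3* did not overlap, so leaving out 1 library could hardly turn their sign.

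Markers of the cells which could carry this RNA were compared in the same fit, where 0 passed the adjusted threshold. Several lists leaned to one side, and their part in these results was not tested. In bulk RNA, fewer cells of a type and less RNA per cell cannot be told apart. All 12 markers of border-associated macrophages, none at 0 reads in any library, had log2 fold changes below 0 (median −0.24; 0 with an unadjusted p under 0.05). Like that of the 10 efferocytosis genes, this direction rested on AAV-CTRL 2: without it 8 of the 12 macrophage markers were above 0 (median 0.04). *Csf1r*, the most abundant of them, was at 558 and 754 CPM in the controls and 481 and 647 CPM after AAV-mVEGF-C. The summed level of the list was 1795 and 2321 CPM against 1528 and 1995 CPM, overlapping between groups. Fibroblast markers, which a CD45+ sort should remove, were present. Of the 9 tested, all were below 0 (median −0.79), and 4 (*Col1a1*, *Dcn*, *Pdgfra*, and *Col1a2*, the most abundant of the list) had an unadjusted p under 0.05, lower, as did 1.18% of all tested genes. Their sum over all 10 listed was 740 and 1218 CPM in the controls and 417 and 649 CPM in AAV-mVEGF-C. The 6 mast cell markers had a median of −0.54, with 4 at an unadjusted p under 0.05, and summed to 2533 and 1758 CPM against 1605 and 1685 CPM. Blood endothelial markers were low (69.1 to 94.3 CPM in sum), with 9 of 10 below 0 (median −0.44). The 9 monocyte markers had a median of 0.02, and the 3 general leukocyte markers 0.02. Markers of other sorted leukocytes went either way: the neutrophil list had a median of 0.13 (7 of 8 above 0), the dendritic cell list 0.23 (6 of 8 above 0), the T and NK cell list 0.18 (6 of 8 above 0), the plasma cell list 0.82 (7 of 7 above 0), and the B cell list −0.72 (7 of 8 below 0). Without AAV-CTRL 2, the neutrophil list was at −0.21 and the B cell list at 0.30, while the plasma cell list stayed at 0.54 to 1.37 with each library left out, the fibroblast list at −1.18 to −0.29, and the mast cell list at −0.72 to −0.28. The neutrophil markers summed to 9909 and 4859 CPM in the controls, which enclosed the 7257 and 8027 CPM after AAV-mVEGF-C. Of the 6 red cell markers, 5 were below 0, all 5 with an unadjusted p under 0.05 (list median −1.80), with a sum of 119 and 149 CPM in the controls against 26.8 and 49.4 CPM.

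**Figure D4:**
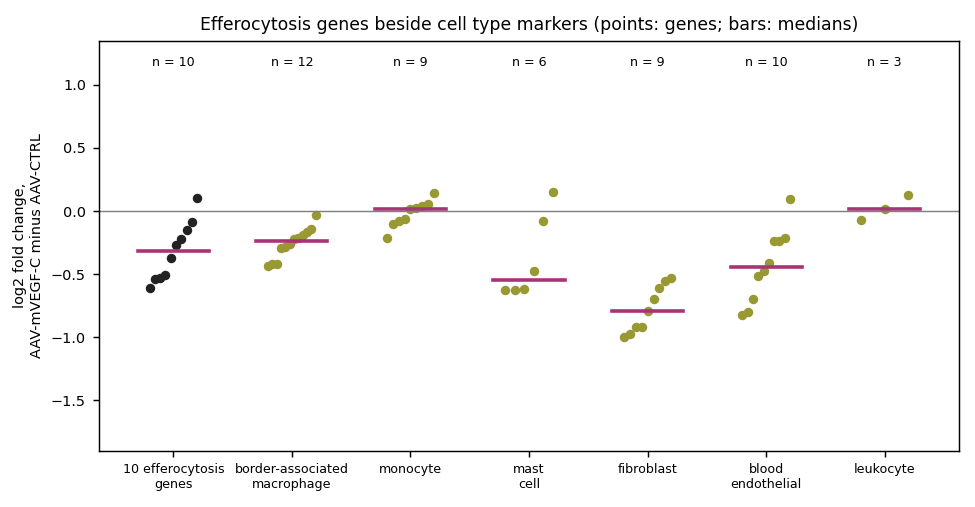
Log2 fold change (AAV-mVEGF-C minus AAV-CTRL) of the 10 efferocytosis genes and of the tested markers of 6 cell types, 1 point per gene, with medians as bars. The medians are −0.32 for the efferocytosis genes, −0.24 for macrophage, −0.79 for fibroblast, −0.54 for mast cell, and −0.44 for blood endothelial markers, and 0.02 for monocyte and leukocyte markers.

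The level of each gene was next set against the mean of the 12 macrophage markers, as a difference in log2(CPM + 1) within each library. *Tyro3*, *Timd4*, and *Gulp1*, at 4.04 CPM or less, are left out of this comparison, because the added 1 compresses their differences. *Cd36* was the only one of the other 7 genes that lay lower by this measure in both AAV-mVEGF-C libraries, at −0.35 and −0.55 in the controls and −0.73 and −0.74 after AAV-mVEGF-C, which was the case for 1.72% of all tested genes. *Mertk* lay higher, at −1.94 and −1.45 against −1.14 and −1.42, though AAV-CTRL 2 and AAV-mVEGF-C 2 were only just apart, and 25.3% of all tested genes did so. *Axl* differed by 0.09 between the group means, *Stab1* by 0.09, *Pros1* by 0.03, *Gas6* by −0.28, and *Mfge8* by −0.24, and all of these overlapped. Against the 10 fibroblast markers, 0 of the 7 genes lay lower (0.257% of all tested genes) and 3 lay higher, *Mertk*, *Axl*, and *Stab1* (55.5% of all tested genes). These shares of all tested genes include genes at low CPM.

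Over the 4 libraries, the same 7 genes were also matched to the marker, of 130 tested, with the most similar profile, by the root mean square difference of centered log2(CPM + 1). *Axl* was nearest to the macrophage gene *Csf1r* (0.039) and almost as near to the dendritic cell gene *Irf8* (0.041). *Mfge8* was nearest to the mast cell tryptase gene *Tpsb2* (0.038), and the next nearest, looked at after the first had been seen, were the mast cell genes *Mcpt4* (0.081) and *Cpa3* (0.087). *Cd36* was nearest to the fibroblast gene *Lum* (0.046). *Gas6* was about as near to the fibroblast gene *Col3a1* (0.121) as to the macrophage genes *Cbr2* (0.125) and *Pf4* (0.133). *Mertk* was nearest to the osteoblast gene *Runx2* (0.051), then to *Sp7* (0.074) of the same list and the dendritic cell gene *Ccr7* (0.109). *Stab1* was nearest to the dendritic cell gene *Siglech* (0.112), then to the B cell gene *Fcer2a* (0.126). The nearest to *Pros1* was *Gp9* at 0.380 CPM or less, which the added 1 flattens, and the next was the endothelial gene *Pecam1* (0.066). With 4 libraries, such matches describe the profiles and do not place a transcript in a cell.

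Reads and TPM did not give the same picture for every gene, because reads per TPM depends on the transcript length assigned in each library. Scaled to the median gene of the library, *Cd36* had 1.06 in AAV-CTRL 1 but 0.698, 0.705, and 0.640 in AAV-CTRL 2 and AAV-mVEGF-C 1 and 2, a ratio of 1.66 between the highest and the lowest, where the median of 15040 genes was 1.14. In TPM, *Cd36* accordingly overlapped between groups (12.97 and 27.3 TPM against 11.9 and 19.0 TPM). *Gulp1* ran from 0.532 to 0.923 (ratio 1.74) on few reads. *Mertk* (1.04), *Pros1* (1.045), and *Timd4* (1.01) were nearly constant. *Axl* was higher in AAV-mVEGF-C 2, at 1.21, than in the other libraries, at 1.003 to 1.054. *Mfge8* had 0.718 and 0.840 in the controls and 0.869 and 0.917 after AAV-mVEGF-C (ratio 1.28). Its log2 fold change was −0.76 and −0.82 with limma on TPM, against −0.51 in the main test. In TPM both AAV-mVEGF-C libraries lay below both controls for *Axl*, *Tyro3*, *Pros1*, *Mfge8*, and *Gulp1*, and 28.5% of all tested genes did so, against 15.2% in CPM. *Cd36* has 6 annotated transcripts in GENCODE M21, *Axl* 8, and *Stab1* 13.

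**Figure D5:**
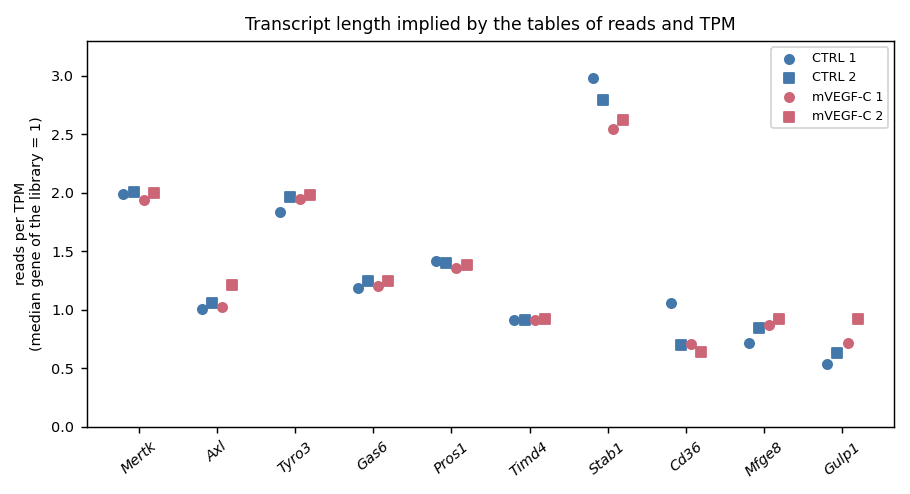
Reads per TPM of each gene in the 4 libraries, where 1 is the median gene of the library, with AAV-CTRL in blue and AAV-mVEGF-C in red. *Cd36* is at 1.06 in AAV-CTRL 1 and at 0.640 to 0.705 in the other libraries, while *Mertk* and *Timd4* are nearly constant.

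The rest of the pathway was represented by 96 further genes, of which 91 were tested. Of these, 0 passed the adjusted threshold in edgeR's or DESeq2's test, 41 were above 0 and 50 below, and the median was −0.02. With limma on TPM, at either pseudocount, 28 were above 0 and 63 below (medians −0.12 and −0.13, with all tested genes at −0.08 and −0.11). With each library left out, 33 of the 91 kept their sign, 19 above 0 and 14 below. Genes with groups apart could hardly fail to do so. Both genes with an unadjusted p under 0.05 in the main test were higher after AAV-mVEGF-C (1.46% of all tested genes). With limma on TPM, 0 were higher and 5 or 6 lower, at pseudocounts of 1 and 0.1. Of all 19806 tested genes, 296 and 267 were higher and 606 and 617 lower in these settings, so the whole table leaned lower too. *Gpr132*, whose product is a receptor for lysolipids that attract phagocytes, was at 110 and 152 CPM in the controls and 178 and 198 CPM after AAV-mVEGF-C (log2 fold change 0.52, SE 0.20; adjusted p = 0.999). *Megf11*, a relative of the engulfment receptor gene *Megf10*, had 15 and 6 reads against 139 and 31 (log2 fold change 3.13, SE 0.92; adjusted p = 0.999).

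Among the 22 other receptors tested, 13 were above and 9 below 0, and the most abundant was *Cd14*, the lipopolysaccharide coreceptor, at a log2 fold change of 0.08 (SE 0.23). Of the 11 other bridging molecules and opsonins, 10 were below 0 (median −0.22), but only 5 to 9 with 1 library left out (6 without AAV-CTRL 2 and 5 without AAV-mVEGF-C 1, where the median was 0.06). The exception was *Thbs1*, for thrombospondin-1, which bridges dying cells to CD36 and integrins. It had the most reads of the role and was at 1748 and 1619 CPM in the controls and 1962 and 2522 CPM after AAV-mVEGF-C (log2 fold change 0.41, SE 0.19; unadjusted p = 0.0706, adjusted p = 0.999 from edgeR). *Anxa1*, for annexin A1, had the highest mean TPM of the role through AAV-CTRL 1 alone, since *Calr*, for calreticulin, was above it in the other libraries. *Anxa1* was at 1056 and 380 CPM in the controls and 491 and 534 CPM after AAV-mVEGF-C, so its log2 fold change of −0.49 (SE 0.44) came with controls far apart. *Tub* had the largest log2 fold change of that group, −0.51 (SE 0.44). The direction of *Anxa1* turned with the control kept. It was at −1.03 without AAV-CTRL 2 (adjusted p = 0.00824 from edgeR) and at 0.41 without AAV-CTRL 1 (adjusted p = 0.69). *Cd300lf*, for an inhibitory phosphatidylserine receptor, turned as well, from 0.90 without AAV-CTRL 1 (adjusted p = 0.00653) to −0.24 without AAV-CTRL 2 (adjusted p = 0.376). *Gpr132* was at 0.78 without AAV-CTRL 2 (adjusted p = 0.0194) and at 0.29 without AAV-CTRL 1 (adjusted p = 0.963). *Megf11* was at 3.66 without AAV-CTRL 1 (adjusted p = 0.0163), 2.75 without AAV-CTRL 2 (adjusted p = 0.0497), and 1.93 without AAV-mVEGF-C 1 (adjusted p = 1), the library with most of its reads.

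Of the 5 tested genes of phosphatidylserine exposure, 4 were below 0. *Xkr8*, which encodes the scramblase that exposes the lipid in apoptosis, was at −0.70 (SE 0.38), and *Tmem30a*, for the subunit of the flippases that return it, at −0.02 (SE 0.15). Of the 7 genes of find-me signals and their receptors, 3 were above and 4 below 0. The 14 genes of engulfment signaling had a median of 0.06 (−0.07 with limma on TPM), with *Rac2* at 0.08 (SE 0.16) and the less abundant *Bcar1* at 0.19 (SE 0.67), which was −0.49 without AAV-CTRL 1 and 1.45 without AAV-CTRL 2. The 20 genes of corpse digestion and lipid handling had a median of −0.02. *Ucp2*, for a mitochondrial carrier, was at 0.01 (SE 0.17), and *Rubcn*, for the Rubicon protein of LC3-associated phagocytosis, at −0.37 (SE 0.24), which ran from −0.62 without AAV-CTRL 1 to −0.07 without AAV-CTRL 2. The 10 nuclear receptor genes had a median of −0.01, with *Nr4a1* at 0.25 (SE 0.21) and *Ppara*, which had 0 to 11 reads, at −0.89 (SE 1.91). Of the further genes described here, *Thbs1*, *Megf11*, *Gpr132*, *Rac2*, *Nr4a1*, *Tub*, *Xkr8*, *Rubcn*, and *Adam10* kept their sign with each library left out, and *Cd14*, *Cd300lf*, *Anxa1*, *Calr*, *Tmem30a*, *Bcar1*, *Ucp2*, *Ppara*, *Adam17*, and the integrin genes did not. A kept sign adds little for *Thbs1*, *Megf11*, *Gpr132*, *Tub*, *Xkr8*, and *Adam10*, whose groups did not overlap in CPM.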

How the data were processed

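RNA of sorted dural CD45+ cells was sequenced as 2 libraries per group. The authors deposited estimated counts per gene, without normalization (8.18% of values not whole), and TPM. The submitters' processing notes name mm10, FastQC, Trimmomatic, DRAGEN, and Picard; the counting program, its use of strand, and the annotation are not given in the sources used here. The kit marks strand. Of the overlapping genes, only *Nt5dc2*, which shares 112 bases with *Stab1* on the other strand, had more than 17 reads in any library. Gene positions follow GENCODE M21 (GRCm38), which holds 54349 of the 55401 identifiers at their deposited version.

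Estimated counts were rounded and tested with edgeR 4.0.16 (glmQLFit, glmQLFTest, TMM, filterByExpr) in R 4.3.3, with Benjamini-Hochberg adjustment over 19806 genes, all 4 libraries, and no covariate. The SE is the size of the log2 fold change divided by the square root of F. The test was tried on simulated data. The alternatives were DESeq2 1.42.0, limma 3.58.1 (voom, and TPM with pseudocounts of 1 and 0.1), RLE factors, other filters, a replicate block, and each library left out. A crossed block and the comparison with marker means were added after seeing the data. The titles number the libraries of each group as experiments 1 and 2 and do not say what libraries with the same number share, and the column names do not repeat these numbers. Reads per TPM was computed for genes with at least 20 reads in every library.

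The 10 genes and all lists were chosen with earlier results of these data known. The named genes were all 10, and in each role of the further list the tested gene with the highest mean TPM, that with the largest absolute log2 fold change, and those with an unadjusted p under 0.05. The integrin chains, *Adam17*, *Cd300lf*, *Thbs1*, *Calr*, *Megf10*, and the fibroblast genes with an unadjusted p under 0.05 were added for their roles or after their values had been seen. From the macrophage and fibroblast lists, which were set beside the 10 genes, the most abundant gene was named, and from all lists the gene nearest in profile, with runners-up added after their values had been seen (1 is not reported here), except for *Tyro3*, *Timd4*, and *Gulp1*, whose match the pseudocount sets.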

Additional observations from a re-analysis of the deposited data

How the results depend on the processing

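Under DESeq2, limma-voom, RLE factors, both other filters, TPM with either pseudocount, and the replicate block, 0 of the 10 genes and 0 of the 88 to 96 further genes that each setting tested passed. The number of all genes that passed was 0 in the main test, 77 with DESeq2, 268 without a filter, 11 with the replicate block, and 54 with the crossed replicate block, and 0 elsewhere. With each library left out in turn, which leaves a lone library assumed to vary like the other group, it ran from 2 to 2058, with 0 to 2 of the 10 genes and 0 to 3 of the further genes. Without AAV-CTRL 1 these were 412, 2, and 2, and without AAV-CTRL 2 they were 2058, 1, and 3. The number of neighboring genes separated in TPM ran from 3 to 5, against 3 in all libraries. The direction changed only for *Timd4* with limma-voom (0.012) and with libraries left out: the ranges were −0.35 to 0.73 for *Mertk*, −0.35 to 0.061 for *Axl*, −1.11 to 0.094 for *Gas6*, −0.44 to 0.36 for *Timd4*, −0.78 to 0.50 for *Stab1*, and −1.14 to 0.19 for *Gulp1*. The cause was not tested. The median of all tested genes shifted to 0.22 without a filter, 0.25 in DESeq2, 0.13 without AAV-CTRL 2, and −0.11 in TPM with a pseudocount of 0.1. Deviations of same-numbered libraries from their group means had r = −0.035 across genes. With the numbers crossed r was 0.035, the same size by construction with 2 libraries per group. Such an r cannot decide whether same-numbered libraries share anything. The main test did not pair them. *Gulp1*, *Tyro3*, and *Timd4*, under 140 reads per library, are the least precise.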
